A study of Mus musculus with 6 samples.

Results

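The inflammasome is the machinery with which a cell senses infection or damage and matures cytokines of the interleukin-1 (IL-1) family. Its mRNAs were followed in tumor cells through 10 genes, namely the inflammatory caspases Casp1, Casp4 and Casp12, the pore-forming protein Gsdmd, the adaptor Pycard, the sensor Nlrp3, and the IL-1 family genes Il1b, Il1rn, Il18 and Il33. Their probes were found by name, as every gene probe whose accession belongs to one of these symbols. All 10 genes had a probe, with 12 probes among the 55681 gene probes of the array, and 9 of the 10 genes were among the 22503 genes tested. The tumors were orthotopic transplants of MMTV-PyMT late carcinoma cells (polyomavirus middle T driven by a mammary promoter), either RANK+/+ or RANK-/-, grown in syngeneic C57BL/6 hosts. RANK, encoded by Tnfrsf11a, is the receptor activator of NF-kB. The hosts were of 1 strain for both genotypes, so only the transplanted cells differed in RANK by design, and host cells left in the sort did not. Live CD45- cells were sorted, which removes leukocytes and enriches tumor cells, and each array compared 1 RNA of each genotype in 2 colors. The 6 arrays made 3 pairs of RNAs with 2 technical arrays each, A and B, and nothing in the labels tells whether a genotype's 3 RNAs are from separate tumors or animals. The p-values therefore measure the spread between these RNAs, which may be partly technical.

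In background terms, a sensor such as NLRP3 binds the adaptor ASC (the product of Pycard), which gathers pro-caspase-1. Active caspase-1 cuts pro-IL-1β and pro-IL-18 into secreted cytokines and cuts gasdermin D, whose fragment opens pores in the plasma membrane, the death known as pyroptosis. Mouse Casp4 encodes caspase-11, which binds bacterial lipopolysaccharide in the cytosol and cuts gasdermin D itself. Casp12 is placed with the inflammatory caspases by sequence. IL-33 is a nuclear cytokine of epithelial and stromal cells released on damage, and Il1rn encodes the antagonist that blocks the IL-1 receptor. Most of these mRNAs are abundant in myeloid cells, and several are induced by NF-kB or interferon. Processing of the cytokines and cleavage of gasdermin D are protein events, which arrays do not read.

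Throughout, a pair ratio is the log2 ratio of the RANK-/- labeled channel over the RANK+/+ labeled channel, averaged over arrays A and B, and errors are SDs across the pairs (n = 3). A level is the normalized log2 signal of a channel, comparable for 1 probe between samples but not between probes. As a check of the labels, Tnfrsf11a was higher in the RANK-/- labeled channel in every pair (2.03, 1.15 and 1.76 in pairs 1, 2 and 3; mean 1.65 ± 0.45), which goes against the labels. By unadjusted limma p it ranked 11 of the 22503 genes. Whether its probe lies in the deleted part of the gene is not given in the sources used here, and whether the genotype labels were exchanged was not tested. Each direction and genotype name below is therefore that of the labeled channel. If the labels were exchanged, every direction would be reversed. Per array and genotype, 51.9% to 58.8% of gene probes were well above background by the scanner software's call. Technical arrays correlated at 0.973 to 0.983 across genes, while pair ratios of different pairs correlated at -0.28 (pairs 1 and 2), 0.18 (pairs 1 and 3) and -0.08 (pairs 2 and 3) across genes, which are not independent replicates. For the tested member probes, arrays A and B differed by at most 0.254.

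Of the 9 members tested, 3 (Casp4, Casp12 and Pycard) were higher in the RANK-/- labeled channel in all 3 pairs, as were 9.95% of all genes tested, and 0 were lower in all 3, as were 9.65% of all genes. The other 6 had mixed signs, against 19.6% of all genes of 1 sign in every pair. By limma with Benjamini-Hochberg adjustment over all genes, 0 members passed 0.05, in a fit where 0 of 22503 genes passed (0%). At an unadjusted limma p under 0.05 stood 2 members (Casp4 and Casp12) and 2.88% of all genes. A rank product test on the same ratios called 0 members and 9 genes in all (0.04%). One member, Casp4, had a mean of at least 2-fold, a size reached by 1.31% of all genes and, with 1 sign in all pairs, by 0.787%. The median of the member means was 0.36, against 0.00 over all genes (0.0045 before rounding), and by pair the member medians were 0.03, 0.23 and 0.41. The SD between pairs exceeded the median of all genes (0.329) in 6 of the 9 members, and lay under it in Casp12, Nlrp3 and Il18. In RNA from a cell mixture, fewer cells of a type and less RNA per cell cannot be told apart.

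**Figure D1:**
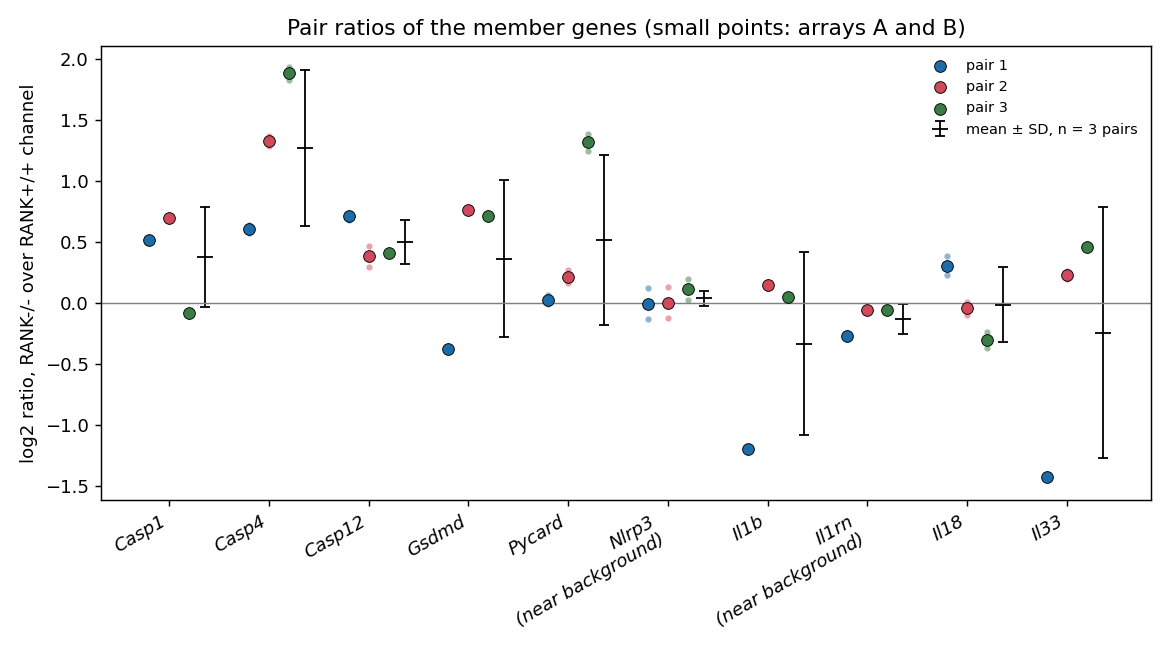
Log2 ratio of the RANK-/- labeled channel over the RANK+/+ labeled channel for the 10 member genes (vertical axis), with 1 large point per pair, small points for its arrays A and B, and bars for the mean ± SD of the 3 pairs. Casp4 and Casp12 lie above 0 in all pairs, whereas Il1b and Il33 are split, with pair 1 at -1.20 and -1.43 and pairs 2 and 3 between 0.05 and 0.46.

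The 3 inflammatory caspases had positive means, and Casp4 stood highest. Casp4 was read by 2 probes of the same transcript (NM_007609), both well above background for either genotype on all 6 arrays. With the brighter one, Casp4 had levels of 11.23, 11.96 and 11.01 in the RANK-/- labeled channel of pairs 1, 2 and 3, and of 10.62, 10.63 and 9.12 in the RANK+/+ labeled channel. Every RANK-/- level lay above every RANK+/+ level, and the low RANK+/+ level of pair 3 gave that pair its wide gap. The pair ratios of Casp4 were 0.61, 1.33 and 1.88, or 1.52-, 2.51- and 3.69-fold, with a mean of 1.27 ± 0.64 (2.42-fold). Its unadjusted p in limma was 0.00934, rank 98 of the 22503 genes, and its adjusted p was 0.9995. The 95% interval from these 3 pairs alone, -0.32 to 2.87, included 0. The other Casp4 probe gave 0.74, 1.15 and 1.68 (1.19 ± 0.47), so both probes placed pair 3 highest and pair 1 lowest. The interval of that other probe was 0.02 to 2.36, not adjusted for the number of genes. With each pair left out in turn, the mean of Casp4 lay between 0.97 and 1.61, and in the other settings tried it lay between 1.07 and 1.32.

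Casp12 was read by 1 probe (NM_009808), well above background in both channels of every array. Its levels were 7.59, 7.81 and 7.43 in the RANK-/- labeled channel and 6.88, 7.42 and 7.02 in the other, so the groups were apart only by the 0.01 between the lowest RANK-/- level (7.432) and the highest RANK+/+ level (7.422). The pair ratios of Casp12 were 0.71, 0.39 and 0.41 (mean 0.50 ± 0.18, 1.42-fold), with an unadjusted limma p of 0.0269 and an adjusted p of 0.9995. The mean was 0.86 with Agilent's processed signals and 0.76 with a normexp offset of 0. Its pairs were closer together than those of the typical gene tested. Levels of the genotypes that do not overlap, with the RANK-/- labeled channel higher, were found for 2 members, Casp4 and Casp12, and for 3.69% of all genes, and in the opposite direction for 0 members and 3.77% of all genes.

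Casp1, the caspase that cleaves pro-IL-1β, was read by 1 probe (NM_009807) that was well above background throughout. Casp1 had levels of 13.02, 13.43 and 12.47 in the RANK-/- labeled channel and of 12.50, 12.73 and 12.55 in the RANK+/+ labeled channel. The groups overlapped, because the RANK-/- level of pair 3 was the lowest of the 6. Its pair ratios were 0.52, 0.70 and -0.08 (mean 0.38 ± 0.41, 1.30-fold, unadjusted limma p 0.141). The mean of Casp1 was 0.10 with median centring in place of loess, 0.22 without pair 2 and 0.61 without pair 3. In pair 3, where Casp4 had its highest ratio, Casp1 was the only caspase of the 3 below 0.

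**Figure D2:**
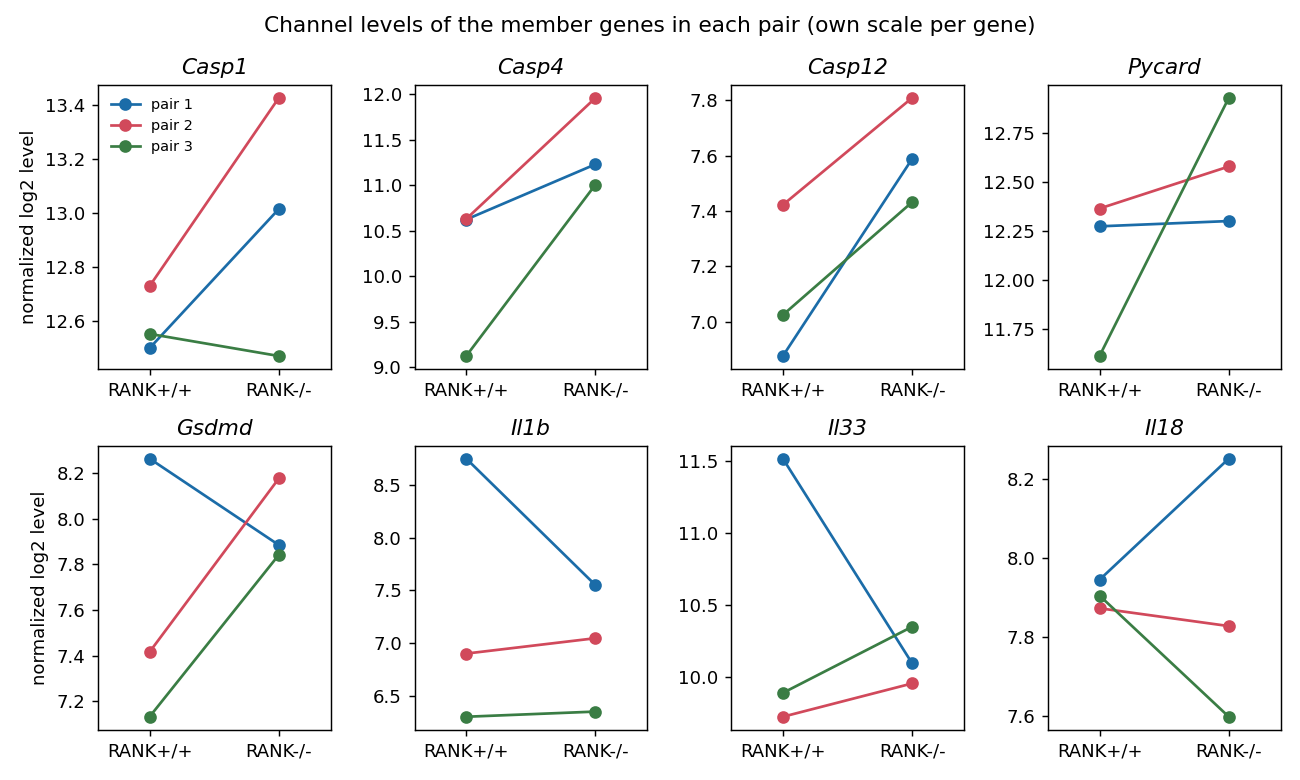
Normalized log2 levels (vertical axis, own scale per gene) of 8 members in the channels labeled RANK+/+ and RANK-/-, with a line joining the channels of each pair. The levels of Casp4 do not overlap between genotypes, those of Casp12 are apart by 0.01, and the other genes shown overlap.

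Casp1, Casp4 and Casp12 are neighbors in that order in the RefSeq annotation of the mouse assembly GRCm38.p6, between Gria4 on the side of Casp1 and Pdgfd on the side of Casp12. Pdgfd (0.32, 0.05 and 0.22) was also above 0 in the 3 pairs, and Gria4 (0.29, 0.70 and -0.76) was not. The promoter windows of these 3 caspases are shown because the genes lie side by side and yet had different pair patterns. Each is the 250 bases before the start site in RefSeq (GRCm38.p6), with the first of the listed start sites for Casp4, and capitals mark matches to any of the 6 motifs searched.
Casp1, chr9:5298267-5298516 (+ strand): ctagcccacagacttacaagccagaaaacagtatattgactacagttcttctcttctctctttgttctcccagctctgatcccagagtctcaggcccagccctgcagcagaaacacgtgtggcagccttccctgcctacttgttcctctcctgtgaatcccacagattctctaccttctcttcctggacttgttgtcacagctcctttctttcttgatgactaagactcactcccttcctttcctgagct
Casp4, chr9:5308599-5308848 (+ strand): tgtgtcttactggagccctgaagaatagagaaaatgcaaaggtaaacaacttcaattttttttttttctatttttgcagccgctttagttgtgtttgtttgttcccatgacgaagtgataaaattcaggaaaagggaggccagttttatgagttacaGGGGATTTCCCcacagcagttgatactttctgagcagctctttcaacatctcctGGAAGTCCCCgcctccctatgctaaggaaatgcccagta
Casp12, chr9:5345226-5345475 (+ strand): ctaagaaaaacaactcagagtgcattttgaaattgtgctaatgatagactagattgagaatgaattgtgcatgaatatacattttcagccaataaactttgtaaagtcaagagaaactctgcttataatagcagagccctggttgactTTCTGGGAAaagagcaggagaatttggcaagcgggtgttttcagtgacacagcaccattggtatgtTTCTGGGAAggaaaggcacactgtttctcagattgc

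The motifs were searched on both strands in the 250 bases before the start of all 32851 windows of the table, 14 of them from 9 of the 10 members. The NF-kB consensus matched in 7.25% of all windows. In Casp4 it matched at 93 to 83 bases before the start, as overlapping matches, and again at 39 to 30 bases. One window of Nlrp3 also held it, at 186 to 177 bases. The gamma-activated site TTCNNNGAA, the letters bound by STAT factors, was in 7.02% of all windows and matched in Casp12 at 102 to 94 and at 36 to 28 bases before the start. The window of Casp1 held 0 matches to any of the 6 motifs. The AP-1 letters TGANTCA (6.75% of all windows) matched in 1 window of Il1rn. The TATA letters TATAAA (12.4%) matched in Il1b at 31 to 26 bases, in Il18 at 175 to 170 bases, and in both Il33 windows. The interferon-stimulated response element, read as GAAA, any 2 bases and GAAA again (2.98%), and the C/EBP letters TTGCGCAA (0.164%) matched in no member. These matches describe letters, and binding was not measured.

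By a rule of smallest distance over the 3 pair ratios, the genes with patterns most like that of Casp4 were AW112010, a noncoding or short-peptide transcript (0.82, 1.41 and 2.07; distance 0.291), H2-Ab1 (0.92, 1.30 and 1.97; distance 0.325) and H2-Eb1 (0.91, 1.43 and 1.66; distance 0.387), the latter 2 being chains of major histocompatibility complex (MHC) class II. The median distance of Casp4 to all genes with a symbol was 2.45. For Casp12 they were Uggt1, Mfhas1 and Zbtb4, at distances of 0.0641 to 0.0893. For Casp1 they were Septin2, Ywhab and Zfp287, at 0.106 to 0.133. Among the caspases themselves, Casp1 and Casp12 were 0.613 apart, Casp4 and Casp12 1.76, and Casp1 and Casp4 2.07.

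Pycard, the adaptor, was read by 1 probe (NM_023258), well above background throughout. Its levels were 12.30, 12.58 and 12.93 in the RANK-/- labeled channel and 12.27, 12.36 and 11.61 in the other. The RANK+/+ level of pair 3 was the lowest, as for Casp4. Its pair ratios were 0.03, 0.21 and 1.32 (mean 0.52 ± 0.70), so its same sign in all pairs rested on a ratio near 0 in pair 1, where array A gave 0.07 and array B -0.01. Its unadjusted limma p was 0.159, and its mean was 0.12 without pair 3 and 0.26 with median centring.

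The sensor Nlrp3 was at the edge of detection. Its brighter probe (NM_145827) was well above background on 4 arrays of 6 in the RANK-/- labeled channel and on 3 of 6 in the RANK+/+ labeled channel, and its other probe on 0 arrays of either. The brighter probe gave pair ratios of -0.00, 0.00 and 0.11 (mean 0.04 ± 0.06), within the difference of its arrays A and B. No difference in Nlrp3 was detectable at this signal.

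The list of inflammasome sensors and adaptor held 15 genes, of which 10 were tested, and Nlrp1b, Nlrp12, Nlrc4, Aim2 and Mefv failed the filter on dim probes. In that list 0 genes passed limma, and the median mean was 0.13. In all pairs, 4 were higher in the RANK-/- labeled channel (Naip2, Naip5, Nlrp1a and Pycard), as were 9.95% of all genes. One was lower in all (Nlrp10), as were 9.65% of all genes. Nlrp1a counted through its brighter probe, at mean levels of 15.15 in the RANK-/- labeled channel and 14.85 in the other. Its other probe, at 6.095 and 6.045, was well above background on 0 arrays of either genotype. The probes thus disagreed on whether Nlrp1a was detected, and what each of them read was not tested. Naip2, a sensor of bacterial secretion proteins, had ratios of 0.22, 0.36 and 1.18. Naip genes are close copies of each other, and their probes may share transcripts.

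Gsdmd, the executor of pyroptosis, was read by 1 probe (NM_026960) well above background throughout. Its levels were 7.88, 8.18 and 7.84 in the RANK-/- labeled channel and 8.26, 7.42 and 7.13 in the RANK+/+ labeled channel. The RANK+/+ RNA of pair 1 held the highest level of the 6, and the groups overlapped. The pair ratios of Gsdmd were -0.38, 0.76 and 0.71 (mean 0.36 ± 0.64, unadjusted limma p 0.268), and its mean was 0.74 without pair 1, 0.17 without pair 2, 0.19 without pair 3, 0.57 with Agilent's processed signals and 0.18 with the dye arrangement as a term. Among 7 tested genes of the list of gasdermins and membrane rupture, 0 passed limma, 0 were higher and 1 (Gsdma) was lower in all pairs, and the median mean was -0.01. Ninj1, which ruptures the membrane after pores form, had ratios of -0.30, 0.55 and 0.47.

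The cytokine Il1b was the member whose RANK+/+ labeled channel differed most between pairs. Its probe (NM_008361) was well above background for either genotype on every array. Il1b had levels of 8.75, 6.90 and 6.30 in the RANK+/+ labeled channel and of 7.55, 7.05 and 6.35 in the RANK-/- labeled channel. Pair 1 held the highest level in both channels, and in pairs 2 and 3 the genotypes lay close together. The pair ratios were -1.20, 0.15 and 0.05 (mean -0.34 ± 0.75, unadjusted limma p 0.356, adjusted p 0.9995). In pair 1 the level was 2.30-fold higher in the RANK+/+ channel. Without pair 1 the mean was 0.10, so the sign of the mean rested on that pair, and it was -0.58 without pair 2, -0.53 without pair 3 and -0.55 with the dye arrangement as a term. The genes with patterns most like that of Il1b were Mgst1, Ifit1bl1 and Zap70, at distances of 0.0503 to 0.0963 against a median of 1.39.

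Il33 followed Il1b in the pair that stood apart. Its probe (NM_001164724) was well above background throughout. The levels of Il33 were 11.52, 9.72 and 9.89 in the RANK+/+ labeled channel and 10.09, 9.95 and 10.35 in the RANK-/- labeled channel. The RANK+/+ RNA of pair 1 was again the highest of the 6, while the RANK-/- levels lay close together. The pair ratios were -1.43, 0.23 and 0.46 (mean -0.24 ± 1.03, unadjusted limma p 0.595), with a mean of 0.35 without pair 1, -0.48 without pair 2 and -0.60 without pair 3. With the dye arrangement as a term the mean of Il33 was -0.54, and with median centring it was -0.44.

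Il18, whose product is also cut by caspase-1, had small ratios of both signs. Its probe (NM_008360) was well above background throughout, with levels of 8.25, 7.83 and 7.60 in the RANK-/- labeled channel and 7.94, 7.87 and 7.91 in the other. The RANK+/+ levels were nearly equal, so the ratios of 0.31, -0.04 and -0.31 (mean -0.02 ± 0.31, unadjusted limma p 0.937) came from the spread of the RANK-/- levels. The interval of the mean from these 3 pairs was -0.78 to 0.75, so a change of that size in either direction cannot be set aside.

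Il1rn, the receptor antagonist, was the member not tested. Its probe (NM_001039701) was not well above background on any array in the RANK-/- labeled channel and was so on 2 of 6 in the RANK+/+ labeled channel, both of pair 1. The measured ratios were -0.27, -0.06 and -0.06. No fold is given, because 4 of the 6 arrays had no signal well above background for either genotype. Il1a, the sister cytokine of Il1b, was well above background on 1 arrays of 6 in each channel and was not tested either.

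Of the 11 IL-1 family ligands and secreted antagonists, 5 were tested and 0 passed limma, with a median mean of -0.24. One was higher in all pairs in the RANK-/- labeled channel, Il18bp (0.33, 0.75 and 1.22; mean 0.77 ± 0.45), the secreted protein that binds IL-18. One was lower in all pairs, Il1f5, the IL-36 receptor antagonist (-1.43, -0.13 and -0.24), which was well above background on 0 arrays of 6 in the RANK-/- labeled channel and on 4 of 6 in the other. It passed the filter only through the RANK+/+ labeled channel, so its ratios were taken against a signal not above background and give no size. The list median of -0.24 includes Il1f5 and is limited in the same way.

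Receptors for these cytokines gave no limma call among 6 tested, with a median mean of 0.10. Il1r1, the signaling receptor for IL-1, was above 0 in all pairs (0.09, 0.58 and 0.96; mean 0.54 ± 0.44). Il1r2, the decoy that binds IL-1 without signaling, gave -0.13, 0.71 and 1.30 (mean 0.62 ± 0.72). Il1rap, the shared accessory chain, had probes that disagreed, with means of -0.16 and 0.14. Il1rl1, the receptor for IL-33, gave -0.33, -0.07 and 0.42 with its brightest probe, which was well above background on 4 arrays of 6 in each channel. Il18r1 gave -0.61, -0.92 and 0.52 (mean -0.34 ± 0.76) with its brighter probe. That probe was well above background on 5 arrays of 6 in the RANK-/- labeled channel and on 4 of 6 in the other. Its other probe was so on 0 and 1 arrays. Downstream of these receptors, 10 genes of IL-1 and Toll receptor signaling were tested, 0 passed limma and 1 was higher in all pairs, Irak3, an inhibitory kinase of the pathway (0.08, 0.17 and 1.75).

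The guanylate-binding proteins (GBPs) and related GTPases, which expose bacterial lipopolysaccharide to caspase-11, and their regulators Irf1 and Irf8 were the list whose median lay farthest from 0. All 7 genes were tested and 0 passed limma, but the median mean was 1.07, with list medians of -0.26, 1.83 and 1.17 by pair. In pair 1, 6 of the 7 were below 0, whereas in pairs 2 and 3 all 7 were above 0. Irf1, the transcription factor that drives many interferon-induced genes, was the gene of the list with 1 sign in all pairs (0.29, 1.53 and 1.63; mean 1.15 ± 0.75). Gbp2 gave -0.09, 1.82 and 2.13, and Gbp5 gave -0.63, 2.40 and 1.44. In pair 1 Casp4 was above 0 (0.61), as Irf1 was, and differed in sign from the 6 genes of the list that were below 0.

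Among 6 genes of NLRP3 activation and priming, 0 passed limma and the median mean was 0.08. Tnfaip3, which encodes A20, a brake on NF-kB, was higher in all pairs in the RANK-/- labeled channel (0.33, 1.66 and 1.03; mean 1.01 ± 0.66). Txnip, a protein that binds NLRP3 under oxidative stress, was lower in all pairs with both probes (mean -0.86 ± 0.17 with the brighter one and -0.64 ± 0.23 with the other). P2rx7, the ATP receptor that triggers NLRP3, gave 1.21, -0.11 and -0.20.

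**Figure D3:**
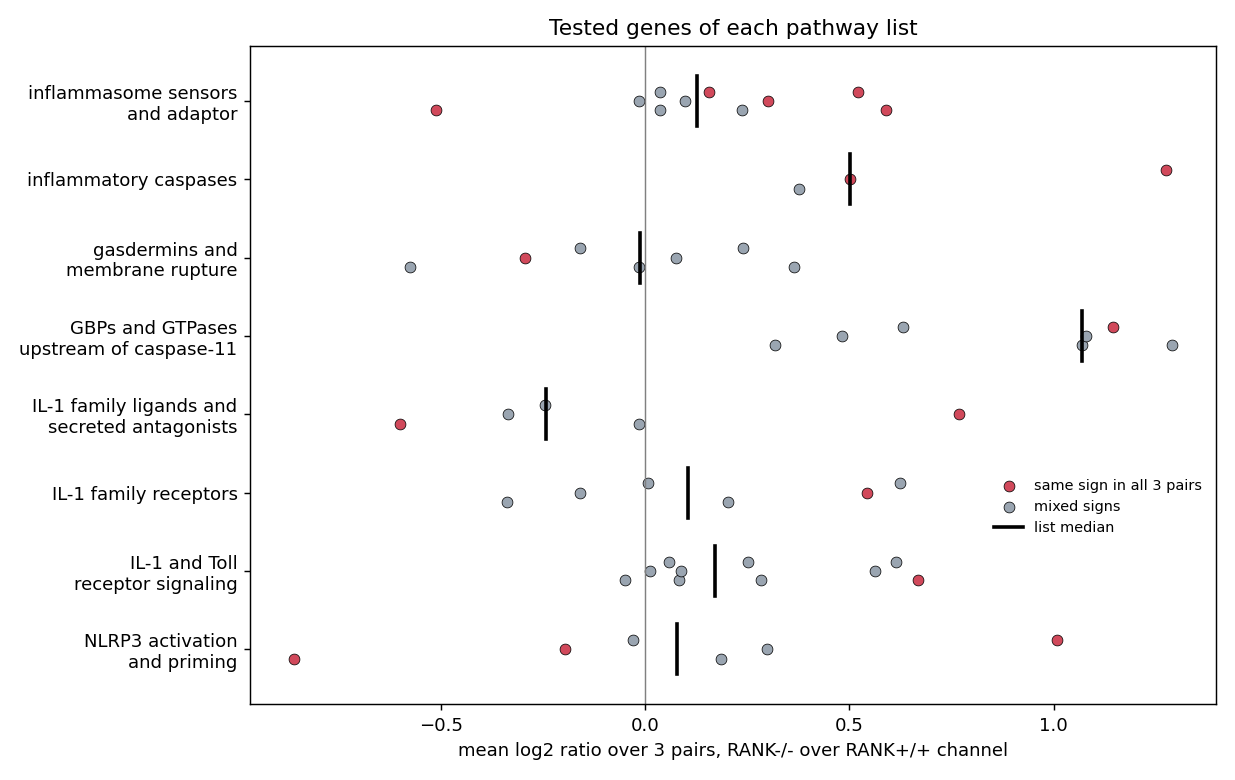
Mean log2 ratio over the 3 pairs, RANK-/- labeled channel over RANK+/+ labeled channel (horizontal axis), for each tested gene of 8 pathway lists, with list medians as black bars and genes of the same sign in all pairs in red. The list of GBPs and GTPases has the median farthest from 0 (1.07), with 1 of its 7 genes, Irf1, of the same sign in all pairs.

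Markers of other cells the sort could hold moved with several members. Ptprc, which encodes CD45 itself, was well above background on 5 arrays of 6 in the RANK-/- labeled channel and on 4 of 6 in the other, with ratios of -0.93, 0.10 and 0.14. All 4 tested leukocyte markers were below 0 in pair 1 (medians by pair -0.92, 0.20 and 0.20), the pair in which Il1b, Il33 and Gsdmd were below 0. The summed linear level of the leukocyte markers was 737 to 1578 in the RANK-/- labeled channel and 459 to 2373 in the RANK+/+ labeled channel. Their part in the results for Il1b, Il33 and Gsdmd was not tested.

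Of the neutrophil markers, S100a8 and S100a9 were far apart in pair 1, and the others less so and in both directions. S100a8 gave -3.99, 0.07 and -0.11, and S100a9 gave -4.12, -0.04 and -0.25. Over the 7 neutrophil markers tested of 10 listed, however, the medians were -0.40, -0.03 and -0.05, and Mmp8 was well above background on 0 arrays. In pair 1, 3 of the 7 were above 0 (Csf3r at 0.42, Elane at 0.25 and Ltf at 0.01). The 4 below 0 were S100a8, S100a9, Ngp at -0.40 and Camp at -0.96 with its brighter probe. The summed level of that list was 52820 to 79390 in the RANK-/- labeled channel and 49700 to 87550 in the other, but Csf3r and Ltf made up 71.7% to 97.2% of it. Without those 2 genes, a choice made after their levels were seen, the pair 1 sum was 2222 in the RANK-/- labeled channel against 24730 in the other. The sums were 3605 against 3558 for pair 2 and 2011 against 2103 for pair 3. The 24730 of pair 1 came largely from S100a8 and S100a9, whose levels in that channel were 14.28 and 11.97. The gap in that sum therefore repeats the ratios of these genes and says little of the other neutrophil markers. The 11 macrophage and monocyte markers tested had medians of -0.26, 0.25 and 0.13, with 9 of 11 below 0 in pair 1. Csf1r gave -0.65, 0.07 and 0.57. The summed level of that list was 7816 to 10670 against 7474 to 9811, but it rested largely on 1 probe of Itgam. That probe had mean levels of 12.52 and 12.42, whereas the other Itgam probes had mean levels of 6.29 to 6.54. The sum therefore says little of the other markers. The part of neutrophils, macrophages and monocytes in the ratios of Il1b was not tested.

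The median of the fibroblast markers was lowest in pair 1 and highest in pair 3, as Casp4 was, though not every marker followed it. The medians were 0.16, 0.85 and 2.01, all 7 were above 0 in pair 3, and their summed level was 138300 to 223300 in the RANK-/- labeled channel and 47220 to 140100 in the RANK+/+ labeled channel, where pair 3 was the lowest. Col1a1 gave 0.68, 0.30 and 1.94, lowest in pair 2, and Pdgfrb gave 1.60, -1.03 and 0.76, highest in pair 1. The part of these cells in the ratios of Casp4, Pycard, Il1r1 and Il18bp, all of them highest in pair 3, was not tested. Epithelial markers had medians of -0.41, -0.67 and 0.33, with Epcam at 1.04, -0.67 and 0.52 and a summed level of 105900 to 390500 in the RANK-/- labeled channel and 145600 to 243100 in the other. All 7 were well above background on every array. In pair 1, 3 of them were above 0 (Epcam, Krt18 at 0.45 and Cdh1 at 0.27). The 4 below 0 were Krt14 at -1.81, Krt5 at -1.41 with its brighter probe, Krt19 at -1.22 and Krt8 at -0.41. Krt14 gave -1.81, 0.12 and -0.44, so it was lowest in pair 1, as Il1b and Il33 were. Endothelial markers had medians of -0.00, -0.10 and 0.52 (Pecam1 0.02, -0.25 and 0.29), with summed levels of 2899 to 3345 and 2350 to 3113. Of the dendritic cell list 2 of 6 genes were tested, with ratios of -0.98, 0.25 and 0.38 for Itgax and -0.16, 0.40 and 0.12 for Zbtb46, Flt3 was well above background on 0 arrays, and the summed levels were 443 to 515 and 410 to 668. Of the T lymphocyte list 2 of 6 genes were tested, with Cd3e at 0.02, 0.20 and 0.01 and Cd4 at 0.11, -0.14 and 0.15. The summed levels were 1632 to 1676 and 1555 to 1794, but rested largely on these 2 probes, at mean levels of 9.35 to 9.54. The other Cd4 probe had mean levels of 6.20 and 6.21. It was well above background on 1 array of 6 in the RANK-/- labeled channel and on 3 of 6 in the other. Among the untested genes of that list, Cd3d (-1.19, 0.21 and 0.01) and Cd3g (-1.16, 0.34 and -0.01) were below 0 in pair 1 as Il1b and Il33 were, and were well above background on 2 or 3 arrays of 6 per genotype, and both probes of Cd8a (-0.40 and -0.22 in pair 1) were above background on 0 arrays in the RANK-/- labeled channel. The part of these cells in the ratios of Il1b and Il33 was not tested.

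**Figure D4:**
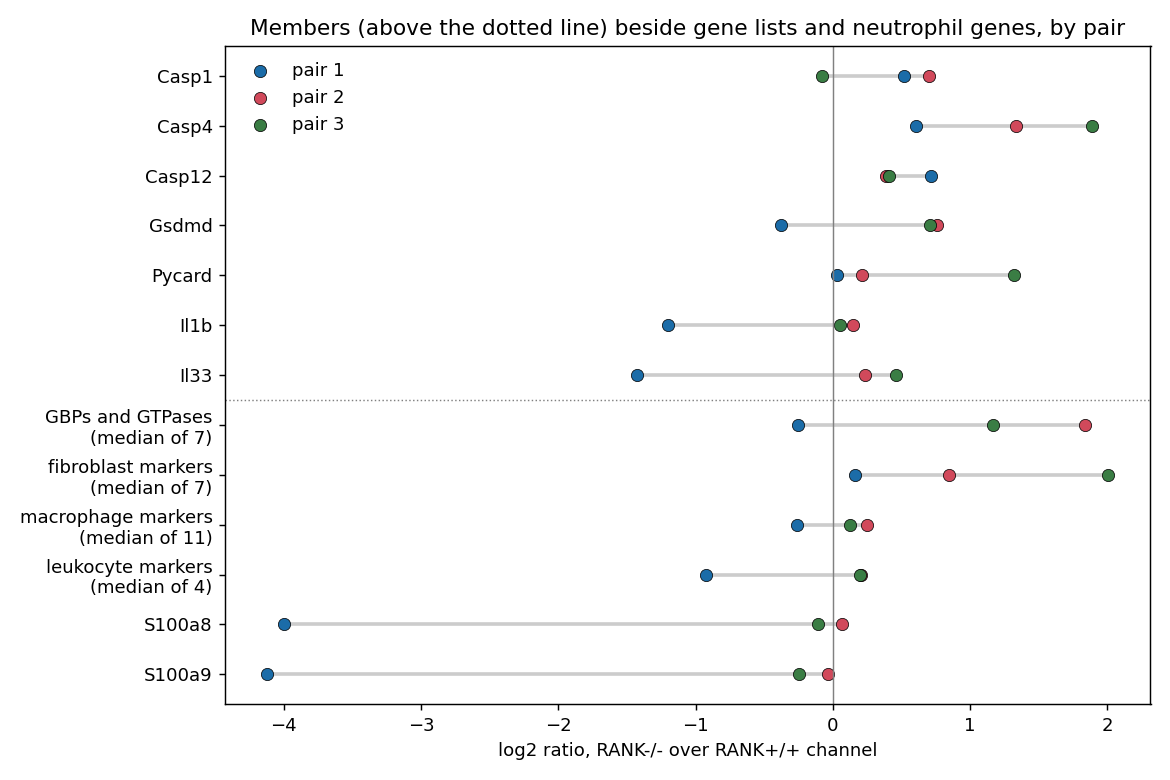
Log2 ratio, RANK-/- labeled channel over RANK+/+ labeled channel (horizontal axis), in each of the 3 pairs for 7 members and, under the dotted line, for the medians of 4 gene lists and for S100a8 and S100a9. The latter are from the 7 neutrophil markers tested, and the other neutrophil markers are not shown. Pair 1 is the lowest for Il1b, Il33 and Gsdmd and for the leukocyte markers (-0.92), and pair 3 is the highest for Casp4 (1.88) and for the fibroblast markers (2.01).

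With pair 1 left out, 8 of the 9 tested members had the same sign in pairs 2 and 3, as did 48.4% of all genes, with Casp4, Casp12, Pycard, Gsdmd, Nlrp3, Il1b and Il33 above 0 and Il18 below 0. Some of these signs rested on ratios near 0. Nlrp3, near background, was at 0.00 in pair 2, where arrays A and B gave 0.13 and -0.12. Il18 was at -0.04 in pair 2 and Il1b at 0.05 in pair 3. With pair 3 left out the count was 4 (35.4% of all genes), and with pair 2 left out it was 3 (55.4%). Pair 1 was also the pair with RANK-/- RNA in Cy5, while pairs 2 and 3 had it in Cy3, so what is particular to pair 1 and what is due to the dyes cannot be told apart. Casp4 and Casp12 were above 0 in both dye arrangements. With the dye arrangement as a term, the mean was 1.11 for Casp4 and 0.55 for Casp12, and 0 members passed limma.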

How the data were processed

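RNA of sorted CD45- cells was compared on 6 two-color Agilent arrays of the SurePrint G3 Mouse design, 3 pairs with technical arrays A and B, on 1 slide with 1 scan date, so neither could be tested as a batch. Per the labels, RANK-/- RNA was in Cy5 in pair 1 and in Cy3 in pairs 2 and 3, with the same dyes on both arrays of a pair. The study's methods describe swaps of Cy3 and Cy5 for every sample, which these labels do not show within any pair. The authors extracted the spots with Agilent Feature Extraction 10.7.3.1, whose deposited tables give median spot and background intensity without normalization, processed intensity values that are background-subtracted and dye-normalized, plus Cy5 over Cy3 as a log10 ratio. The authors also deposited a series table of normalized log2 ratios. Set against the scanner ratios turned to RANK-/- over RANK+/+, its columns correlated at 0.825 to 0.862 across probes, so their direction was the same. Its column medians were 0.00310, 0.00296, 0.00216, 0.00404, -0.00800 and -0.00703 for arrays 1A, 1B, 2A, 2B, 3A and 3B, and its centring was not stated. Both served as alternatives only, and 0 of its columns were left without a sample.

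Median signals were corrected with normexp (offset 50), normalized by intensity loess and Aquantile in limma 3.58.1 (R 4.3.3, data.table version 1.17.8), and averaged per probe and per pair. A probe had to be well above background in one genotype's channel, on arrays A and B alike, in 2 or more pairs, and the brightest kept probe stood for a gene. Symbols came from RefSeq (GRCm38.p6) by accession, with 28026 probes matched. The older RefSeq symbols Il1f5, Il1f6, Il1f8, Il1f9 and Gm12250 stand for Il36rn, Il36a, Il36b, Il36g and Irgb10. The array grid uses mm9, so no probe coordinates are given. limma was fitted with an intercept on the 3 pair ratios of all 22503 genes (Benjamini-Hochberg, 0.05, two-sided). The smallest p of an exact sign-flip test over 3 pairs is 0.25. The code of the fit was tested on simulated independent ratios with the same spread for every gene. The spread in the real data differs by gene, so that test bears on the code only. The number of arrays limits the precision.

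The members, the gene lists and the motifs were chosen with earlier results of these data known. Named genes were the members with all probes, Tnfrsf11a, genes of the pathway lists whose 3 pairs shared a sign and whose mean was at least 1 in size, Il1a and 5 receptors, and the defining marker of each cell type. Other list genes named (such as Naip2, Ninj1, Gbp2, Gbp5, Txnip, P2rx7, Irak3, Il18bp and Il1f5), as well as the caspases' neighbors Gria4 and Pdgfd, were picked after their values were seen. So were the markers Pdgfrb, Itgam, Itgax, Zbtb46, Cd4, Cd3d, Cd3g, Cd8a, Csf3r, Ltf, Elane, Ngp, Camp, Mmp8, Krt5, Krt8, Krt14, Krt18, Krt19 and Cdh1. Alternatives changed the background correction, normalization, signal, filter, probe, technical arrays, block, dye term, test and pairs used.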

Additional observations from a re-analysis of the deposited data

How the results depend on the processing

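The count of genes called by limma was 0 in every setting, the 3 fits without 1 pair included, except 3. It was 298 with the 6 arrays as separate replicates, which counts technical arrays as independent, 13 with the pair as a random replicate block (consensus correlation 0.962), and 9 by rank product. Members called were 2 with the 6 arrays separate (Casp4, adjusted p 0.0436, and Casp12, adjusted p 0.0426) and 0 in all other settings, the replicate block and the fit with no replicate block (0 genes called, 827 at an unadjusted p under 0.05) included. Members with the same sign in all pairs were 2 to 4 in other settings with all pairs, and 3 to 8 without 1 pair (8 without pair 1). Of 179 member means recomputed, 7 changed sign, all in members with small or split ratios. They were Il18 with Agilent's processed signals (0.0304), with the dye term (0.0651) and without pair 3, Il1b and Il33 without pair 1, and Nlrp3 with arrays B alone (-0.0771) and without pair 3. With 1 pair left out, the means ranged from -0.1757 to 0.1304 for Il18, from -0.5763 to 0.0979 for Il1b, from -0.5974 to 0.3465 for Il33 and from -0.0010 to 0.0570 for Nlrp3. The cause was not tested beyond what leaving out a pair shows. The means of Casp1, Casp4, Casp12, Gsdmd and Pycard stayed above 0 in every setting, at 0.10 to 0.61, 0.97 to 1.61, 0.39 to 0.86, 0.17 to 0.74 and 0.12 to 0.77. Signal near background limits Nlrp3, Il1rn and Il1a. Each ratio is taken within an array, so the pairing is built into every fit except that with no replicate block.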
